A study of Mus musculus with 2 samples.

Results

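The 10 genes described here were S100a4, S100a6, S100a10, S100a11, S100a13, Lgals1, Lgals3, Anxa1, Anxa2 and Anxa6. They were chosen by symbol from the S100, galectin and annexin families with earlier results of these libraries known, so their levels across T cell states and genotypes are given as a description. The feature list of the series held 32285 genes, among them 17 S100, 8 galectin and 12 annexin genes. The data are droplet single-cell RNA libraries of YFP+7AAD- cells sorted from the spleens of 7-day-old C57BL/6J mice, with a single (1) library for each of the genotypes WT and KO (Zfp335fl/flFoxp3-Cre). In both groups Cre and the YFP reporter follow Foxp3, the transcription factor that defines regulatory T cells (Tregs), and in KO mice Cre removes floxed Zfp335 from cells that express Foxp3. How many mice each library pooled was not stated. With 1 library per genotype there was no replicate and no test between genotypes, and every interval below is a 95% interval for counting error only.

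S100 proteins are small, mostly calcium-sensing proteins that bind partner proteins, and several of them pair with annexins, which attach to membranes in a calcium-dependent manner. Galectins are lectins that bind galactose-containing sugars on cell surfaces, and several members of all 3 families are linked to cell movement, membrane repair and the cytoskeleton. In T cells many of these genes are known to be low in resting cells and higher after activation, and galectin-1 has been described as a molecule through which Tregs restrain other T cells.

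The WT library held 14524 barcodes and 64567991 unique molecular identifiers (UMIs, each marking 1 captured transcript), and the KO library 18134 barcodes and 65480052 UMIs. A minimum of 300 genes and a maximum of 5% mitochondrial UMIs left 8053 WT and 13767 KO barcodes, since 6471 WT and 4364 KO barcodes exceeded the mitochondrial limit. After removal of likely doublets 7828 WT and 12733 KO barcodes were left, of which 7254 and 11849 lay in T-lineage clusters with median depths of 5017 and 2722 UMIs. Of all barcode sequences 70 occurred in both libraries. Zfp335 itself had 381 UMIs (8.12 CPM, which are counts per 1e+06 UMIs summed over the barcodes of a state and library) in WT and 39 UMIs (0.808 CPM) in KO T-lineage barcodes, and Foxp3 had 40.5 and 44.3 CPM.

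T-lineage clusters were named from marker genes, and the 10 genes and their families took no part in the clustering. The cluster named resting Treg-like (2765 WT and 4744 KO barcodes) had 9 of 10 resting markers raised, the activated Treg-like cluster (601 and 1225) 8 of 12 activation markers, the cycling Treg-like cluster (562 and 714) 14 of 14 division markers and also 9 of 16 effector markers, and the effector Treg-like cluster (1670 and 93) 16 of 16 effector markers. Cluster 6 (596 and 289 barcodes) had 16 of 16 effector and 9 of 14 division markers raised, with effector markers among its leading genes, and is kept by number. A pair of shallow clusters led by haemoglobin and neutrophil granule genes (1060 and 4784 barcodes) stayed unnamed. Erythroid-like barcodes (287 WT and 588 KO) served as the measure of free RNA, because red cell precursors should lack T cell transcripts. These barcodes nevertheless held 853 CPM (WT) and 1723 CPM (KO) of 6 CD3 and T cell receptor genes, 12.8% (12.2 to 13.3) and 28.1% (27.2 to 28.9) of the T-lineage level, so a level in them is read below as background. Some of the 10 genes had a larger share, as did Lgals1 with 17.1% (16.0 to 18.3) in WT and 37.0% (34.7 to 39.4) in KO. S100a13 had 20.1% (17.0 to 23.6) and 36.2% (31.3 to 41.6), and S100a4 in KO 55.7% (38.2 to 78.7). Others, such as S100a6, overlapped the share of the T cell genes. The background of the former genes may thus hold more than free T cell RNA, which was not tested.

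All 5 S100 members lie on the plus strand of chromosome 3 (build GRCm38, GENCODE annotation), in a pair of groups 2896 kb apart. The first group holds S100a13 (chr3:90514435-90524581), S100a4 (chr3:90603771-90606045) and S100a6 (chr3:90612882-90624181), and the second S100a11 (chr3:93520488-93526287) and S100a10 (chr3:93555080-93564643). The annotation lists an overlapping gene on the same strand for S100a4 (Gm42674) and none for the other 4. Lgals1 lies at chr15:78926725-78930465 and Lgals3 at chr14:47367751-47386160, Anxa2 at chr9:69453620-69491795, and on the minus strand Anxa1 at chr19:20373428-20390944 and Anxa6 at chr11:54979108-55033445. RefSeq promoter windows of the same build were matched by symbol for 7 of the 10 genes. The stretches directly upstream of the start are shown for S100a4 (chr3:90603520-90603769), S100a6 (chr3:90612644-90612881) and S100a11 (chr3:93520246-93520487), the S100 members with the lowest KO to WT ratios. They are written on the plus strand from 5′ to 3′ and end before the first annotated exon, and capitals mark the matches to 4 motifs, each searched on both strands. The motif of AP-1 factors was TGANTCA and that of RUNX factors was TGTGGT. The TATA motif was spelled TATAAA and the GC box GGGCGG.
S100a4: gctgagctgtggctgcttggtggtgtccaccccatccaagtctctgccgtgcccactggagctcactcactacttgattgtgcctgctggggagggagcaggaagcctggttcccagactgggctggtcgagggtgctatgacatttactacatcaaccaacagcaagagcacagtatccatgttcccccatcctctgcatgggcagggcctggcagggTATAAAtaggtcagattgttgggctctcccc
S100a6: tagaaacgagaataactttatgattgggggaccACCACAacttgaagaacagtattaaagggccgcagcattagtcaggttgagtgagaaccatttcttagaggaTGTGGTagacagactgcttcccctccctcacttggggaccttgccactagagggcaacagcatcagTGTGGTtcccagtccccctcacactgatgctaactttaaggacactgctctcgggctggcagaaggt
S100a11: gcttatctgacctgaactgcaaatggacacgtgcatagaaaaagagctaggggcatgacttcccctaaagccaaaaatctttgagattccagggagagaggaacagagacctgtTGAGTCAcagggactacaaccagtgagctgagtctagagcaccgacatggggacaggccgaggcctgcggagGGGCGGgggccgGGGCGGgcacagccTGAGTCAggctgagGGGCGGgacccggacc
The S100a4 stretch held 1 TATA match, and 12.4% of 32851 promoter windows of 250 bases held at least 1. Those windows left out 1 chromosome and were cut to length without regard to exons. The S100a6 stretch held 3 RUNX matches, against at least 1 in 13.5% and at least 3 in 0.107% of windows cut to the same 238 bases. The S100a11 stretch held 2 AP-1 and 3 GC box matches, against at least 2 AP-1 matches in 0.320% and at least 3 GC boxes in 7.80% of windows of 242 bases. No matches overlapped, and no motif was found in all 3 stretches. The stretches of Lgals3 and S100a13, searched likewise but not shown, held no match to the 4 motifs. That of Anxa2 held 1 AP-1 and 1 GC box match. A match says only that these letters are present.

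In the WT library 7 of the 10 genes were at least 2-fold higher in effector Treg-like than in resting Treg-like barcodes, against 3.62% of the 10149 genes with at least 50 UMIs in the pair. Their median log2 ratio was 1.99, and that over all these genes was -0.05. S100a4, S100a11, S100a6 and Lgals3 had the largest ratios, S100a13 and Anxa6 were less than 2-fold higher, and Anxa1 stood at 2.64 and 2.72 CPM. The clusters come from the same barcodes as these levels, and the genes were chosen with such levels known, so nothing is read from the count.

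S100a4, which binds non-muscle myosin and is tied to cell motility, had 64.1 CPM (59.5 to 69.0) in WT resting Treg-like barcodes, 193 (182 to 204) in activated, 281 (270 to 292) in cycling, 483 (468 to 499) in cluster 6 and 724 (709 to 740) in effector Treg-like barcodes. These 5 states did not overlap within counting error, and the effector level was 11.3 times the resting level (10.5 to 12.2). S100a6, a partner of the calcyclin-binding protein, ran from 262 CPM (252 to 271) in resting to 1938 (1913 to 1963) in effector barcodes, a ratio of 7.41 (7.13 to 7.70), and was higher still in cluster 6, with 2082 (2049 to 2115).

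S100a10, which binds no calcium and forms a complex with annexin A2, had 728 CPM (712 to 744) in resting and 2747 (2717 to 2777) in effector barcodes, a ratio of 3.77 (3.68 to 3.87). Its level in cluster 6, 2792 CPM (2754 to 2830), could not be told from the effector level. S100a11, a partner of annexin A1, had 96.6 CPM (90.9 to 103) in resting and 745 (729 to 760) in effector barcodes, 7.71 times as much (7.23 to 8.22), and here too cluster 6 overlapped the effector level with 717 CPM (698 to 737). S100a13, a copper-binding member tied to the export of proteins without a signal peptide, differed less, with 224 CPM (216 to 233) in resting and 404 (393 to 416) in effector barcodes, and its resting and cycling levels overlapped within counting error.

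The galectins peaked in cluster 6 rather than in effector Treg-like barcodes. Lgals1, which encodes galectin-1, had 764 CPM (747 to 780) in resting, 2160 (2134 to 2187) in effector, 2607 (2574 to 2640) in cycling and 3417 (3375 to 3459) in cluster 6 barcodes of WT. Lgals3, which encodes the sugar-crosslinking galectin-3, had 25.4 CPM (22.5 to 28.6) in resting and 28.7 (24.7 to 33.2) in activated barcodes, which overlapped, against 153 (146 to 160) in effector, 318 (307 to 330) in cycling and 411 (397 to 426) in cluster 6. In WT both galectins were thus higher in the clusters with raised division genes than in the effector cluster, in which no division marker was raised.

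Anxa2 ordered the 5 states as Lgals1 did. Anxa2, which links membranes to actin, had 87.5 CPM (82.0 to 93.2) in resting, 366 (355 to 377) in effector, 398 (385 to 411) in cycling and 586 (569 to 604) in cluster 6 barcodes. Anxa6, a large membrane-scaffolding annexin, varied between 184 CPM (174 to 195) in activated and 325 (314 to 335) in effector barcodes, and the effector level was 1.24 times the resting level (1.18 to 1.30). Anxa1, the ligand of formyl peptide receptors that limits inflammation, had 1.42 to 2.72 CPM in the 5 WT T cell states, and each interval overlapped that of WT erythroid-like barcodes, 2.32 CPM (0.851 to 5.05).

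Within the WT effector cluster S100a4 and S100a6 differed between barcodes with and without effector surface markers. In 329 barcodes with a Klrg1 UMI, a receptor of terminally differentiated effector Tregs, S100a4 had 1314 CPM (1269 to 1360) and S100a6 3322 (3250 to 3395). In 343 barcodes with Cxcr3, a chemokine receptor, but no Klrg1 UMI they had 1100 CPM (1060 to 1141) and 2524 (2463 to 2586). In the 998 barcodes with neither, S100a4 had 361 CPM and S100a6 1201. In the same order Lgals3 had 215, 264 and 86.8 CPM and Lgals1 2903, 2599 and 1717. S100a13 with 466, 431 and 371 CPM, Anxa2 with 403, 406 and 337, and Anxa6 with 376, 377 and 286 differed less between these subsets.

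**Figure D1:**
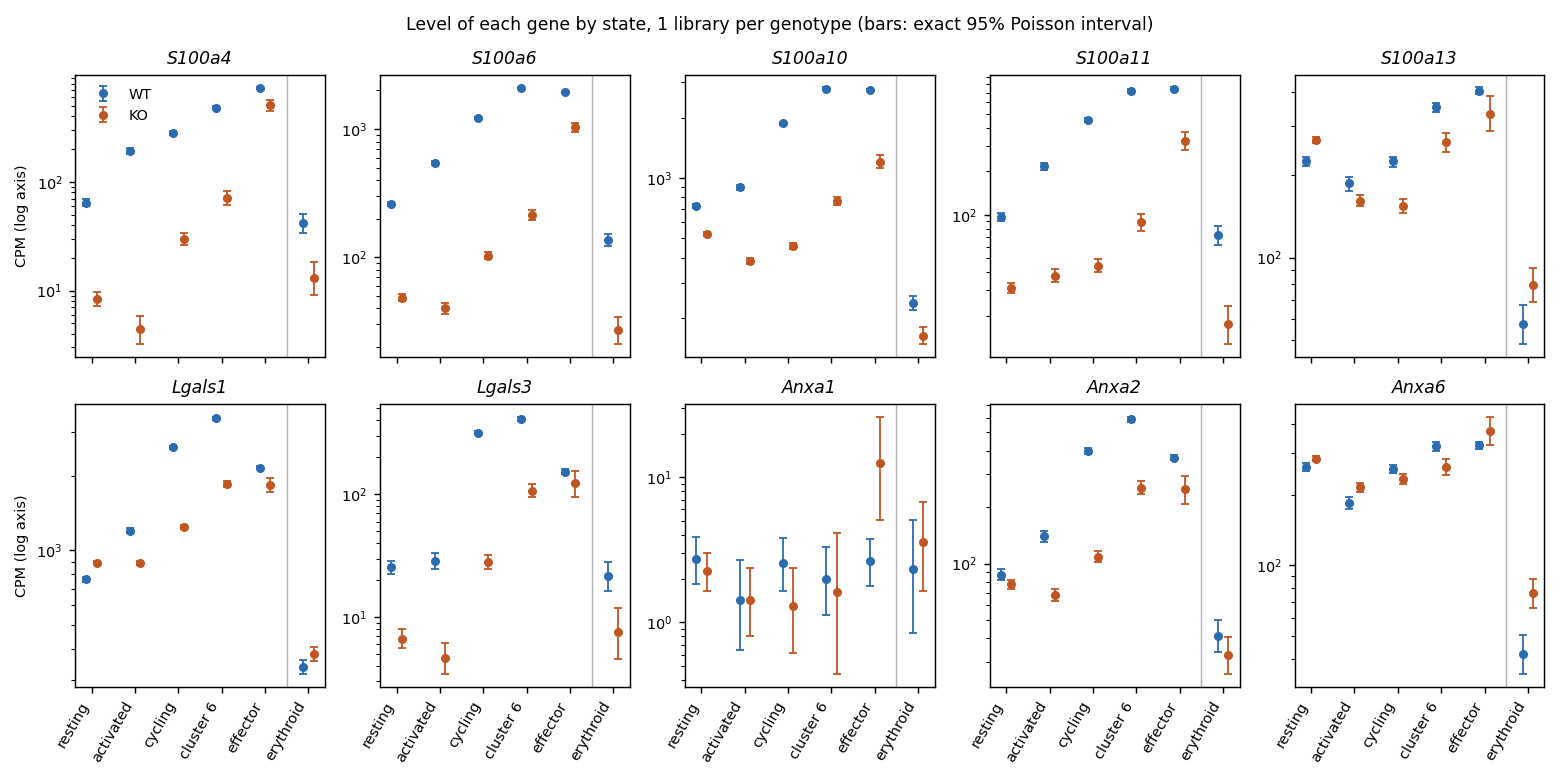
CPM of each of the 10 genes (log axis, with its own range in each panel) in 5 T cell states and in erythroid-like barcodes, for the WT and KO libraries, with exact Poisson intervals. In WT, S100a4 runs from 64.1 CPM in resting to 724 in effector barcodes, whereas in KO it stays between 4.39 and 71.8 CPM outside the effector cluster.

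Over all T-lineage barcodes 6 of the 10 genes were at least 2-fold lower in the KO library, and 1, Anxa1, at least 2-fold higher, where 5.49% of 12115 genes were at least 2-fold lower. Their median KO to WT ratio was -1.79 on the log2 scale, against -0.07 over all genes tested. S100a4 had 362 CPM in WT and 23.5 in KO, a KO to WT ratio of 0.0651 (0.0613 to 0.0691). S100a6 had 1217 and 85.5 CPM, a ratio of 0.0702 (0.0680 to 0.0725). These were the lowest ratios of the 10.

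S100a11 (451 and 50.4 CPM, ratio 0.112) and Lgals3 (180 and 22.6 CPM, ratio 0.125) followed, and S100a10 (1826 and 500 CPM, ratio 0.274) and its partner Anxa2 (309 and 93.9 CPM, ratio 0.304) lay close together. Lgals1 was just short of the 2-fold limit, with 1981 and 1029 CPM and a ratio of 0.519 (0.514 to 0.525). S100a13 had 285 and 220 CPM, and Anxa6 had 275 and 256 CPM, a ratio of 0.930 (0.907 to 0.953).

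Anxa1 went the other way over all T-lineage barcodes, with 137 UMIs (2.92 CPM) in WT and 285 UMIs (5.91 CPM) in KO, a ratio of 2.02 (1.64 to 2.50). The clusters led by haemoglobin and granule genes held 71.9% of the KO and 20.4% of the WT Anxa1 UMIs, with 27.5 and 29.4 CPM, and neutrophil lineage-like barcodes, which express Anxa1 themselves, held 516 and 748 CPM. Without those clusters the log2 ratio of Anxa1 was -0.27 in place of 1.02, so its direction rests on them. S100a8 and S100a9, the neutrophil calgranulins, were also higher in KO, at 116 CPM in WT and 238 in KO and at 127 and 308 CPM, but in resting barcodes they were lower, at 137 and 78.7 CPM and at 148 and 95.3 CPM, and likewise in effector barcodes, at 98.6 and 63.2 and at 107 and 84.9 CPM. The other 9 genes kept their direction without these clusters.

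Within resting Treg-like barcodes 4 of the 10 genes were at least 2-fold lower in KO, where 2.80% of 10406 genes were. S100a4 had 64.1 CPM in WT and 8.39 (7.15 to 9.77) in KO, S100a6 262 and 48.6 (45.5 to 51.8), S100a11 96.6 and 31.0 (28.6 to 33.6), and Lgals3 25.4 and 6.70 (5.60 to 7.95). The same 4 genes were also lower in KO erythroid-like barcodes, in which S100a4 had 41.8 CPM in WT and 13.1 in KO, S100a6 136 and 27.0, S100a11 71.9 and 17.5, and Lgals3 21.6 and 7.56. For S100a6, S100a11 and Lgals3 the interval of the KO to WT ratio in resting barcodes overlapped that in erythroid-like barcodes, as with Lgals3 at 0.264 (0.212 to 0.325) and 0.349 (0.196 to 0.597). For S100a4 the resting ratio of 0.131 (0.110 to 0.155) lay below the erythroid-like ratio of 0.314 (0.206 to 0.468). With the erythroid-like CPM of each library subtracted, S100a4, Lgals3 and Anxa1 had nothing left in KO resting barcodes and no ratio, and of the other 7 genes 1, S100a6, remained at least 2-fold lower. The median depth of erythroid-like barcodes was 4211 UMIs in WT and 1912 in KO, and that of resting ones 3816 and 3662. In KO the 6 CD3 and T cell receptor genes had 903 CPM in the deeper neutrophil lineage-like barcodes, against 1723 in erythroid-like ones. In WT they had 735 and 853 CPM. Whether the subtraction took away too much in KO was not tested, nor was the share of the resting difference that free RNA holds.

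The remaining genes differed little between the genotypes in resting barcodes. S100a10 had 728 CPM in WT and 526 in KO (ratio 0.723, 0.703 to 0.745) and Anxa2 87.5 and 77.6 (0.887, 0.818 to 0.963). Lgals1 (764 and 892 CPM), S100a13 (224 and 268) and Anxa6 (262 and 285) were slightly higher in KO, with ratios of 1.17, 1.20 and 1.09. Each of these turned just below equal under 1 of the other settings, with log2 ratios of -0.10, -0.02 and -0.08.

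The genotype difference was wide in activated Treg-like barcodes, in which 6 genes were at least 2-fold lower in KO (2.86% of all genes were). S100a4 had 193 CPM in WT and 4.39 (3.21 to 5.85) in KO, a ratio of 0.0228 (0.0166 to 0.0306), and this KO level was below the 13.1 CPM of KO erythroid-like barcodes. S100a6 had 543 CPM in WT and a ratio of 0.0736 (0.0664 to 0.0815), and S100a11 217 and 37.9. In cycling Treg-like barcodes 7 genes were at least 2-fold lower (3.39% of all genes), Lgals1 among them with 2607 and 1241 CPM. In cluster 6 there were 6 such genes (5.31% of all genes), S100a6 among them with 2082 CPM in WT and 215 in KO. In the activated and cycling states and in cluster 6 the ratios of S100a4 and S100a6 lay below their erythroid-like ratios with no overlap of the intervals. For S100a11 this held in the cycling state and cluster 6, while its activated ratio of 0.175 (0.156 to 0.195) overlapped the erythroid-like 0.243 (0.171 to 0.340). Effector markers were lower in KO within clusters too. At least 2-fold lower were 7 of 9 measured in activated (median log2 ratio -2.42) and 11 of 13 in cycling barcodes (-2.30). In cluster 6 these were 11 of 13 (-2.16), in resting barcodes 11 of 14 (-1.43) and in effector barcodes 3 of 15 (-0.26). WT and KO barcodes of 1 cluster thus differed in effector markers, and the part of this in the ratios was not tested.

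Effector Treg-like barcodes of the KO library were few, 93 against 1670. For S100a4, S100a6, S100a11 and Lgals3 the KO to WT ratio was nearer to 1 there than in the other T cell states, but S100a10 (0.438 against 0.723) and Anxa2 (0.681 against 0.887) lay nearer to WT in resting barcodes. There 2 genes, S100a10 and S100a11, were at least 2-fold lower, where 9.07% of all genes were. S100a10 had 1204 CPM (1115 to 1299) against 2747 in WT, and S100a11 325 (279 to 376) against 745. S100a4 had 506 CPM (448 to 568) against 724, S100a6 1035 (952 to 1123) against 1938, and Lgals3 123 (95.3 to 156) against 153, for which the interval of the ratio included 1. Markers of conventional T and NK cells summed to 179 CPM in these 93 barcodes and to 28.6 CPM in the WT effector cluster, with 1 of the 7 markers at 0 in KO and none in WT, and Klrd1, an NK receptor gene, had 41.5 and 2.89 CPM. The part of these markers in the values was not tested.

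In the 27 KO effector barcodes with Cxcr3 but no Klrg1 UMI, S100a4 had 1115 CPM (962 to 1285), overlapping the 1100 of the same WT subset. S100a10, with 1296 CPM (1131 to 1479) against 3188, and S100a6, with 1554 (1373 to 1753) against 2524, stayed below it. Only 2 KO barcodes of the cluster had a Klrg1 UMI.

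**Figure D2:**
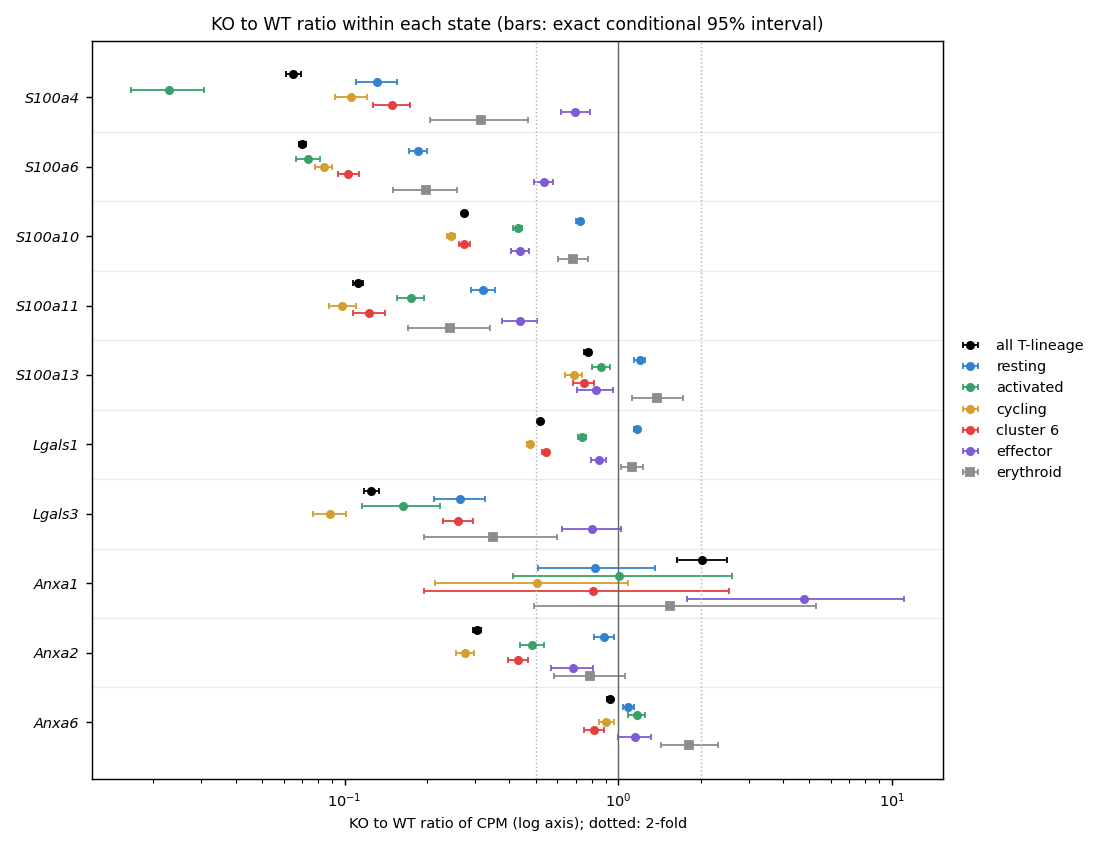
KO to WT ratio of CPM (log axis, 1 library per genotype) for each gene over all T-lineage barcodes, within 5 T cell states and in erythroid-like barcodes, with exact conditional binomial intervals. The S100a4 ratio runs from 0.0228 in activated to 0.698 in effector barcodes, whereas the Anxa6 ratios of the T cell states lie between 0.817 and 1.17.

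The makeup of states differed as well, since effector Treg-like barcodes made up 23.0% of WT and 0.785% of KO T-lineage barcodes. The effector cluster held 50.2% of the S100a4 UMIs in WT and 24.6% in KO, and 41.4% and 7.40% of the S100a11 UMIs, while it held 25.1% and 1.15% of all T-lineage UMIs. To set the makeup apart, WT levels of each state were weighted by the KO shares of UMIs. S100a4 then came to 190 CPM, against 362 in WT and 23.5 in KO, so that of the log2 difference of -3.94 the makeup carried -0.93. For S100a6 the weighted level was 694 CPM between 1217 and 85.5, and for S100a10 1166 between 1826 and 500.

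The median of the 10 genes was -0.65 on the log2 scale for the makeup alone and -1.15 for what was left within states. For S100a13 the makeup gave 226 CPM and KO had 220. Anxa6 came to 245 CPM weighted and 256 in KO. For S100a13 and Anxa6 little was left within states, -0.04 and 0.07 on the log2 scale. This split treats the 6 states as uniform, and a finer clustering gave -0.54 for the makeup. What was left within states may also hold free RNA and the differences in effector markers within clusters given above. Their part was not tested.

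**Figure D3:**
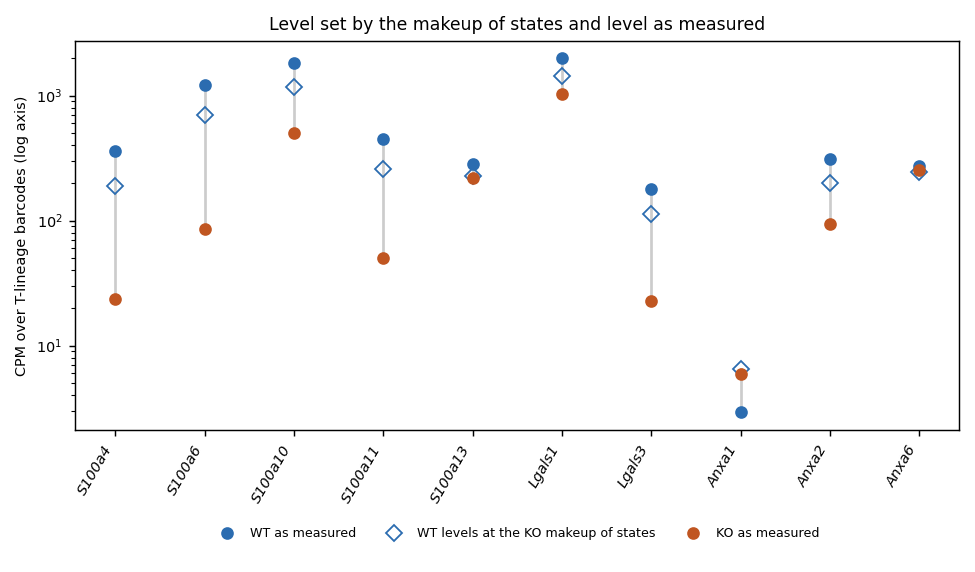
CPM of each gene over T-lineage barcodes (log axis) in WT, in KO, and in WT with its states weighted as in KO. For S100a4 the weighted level of 190 CPM lies between 362 in WT and 23.5 in KO, and for S100a13 the weighted and KO levels nearly coincide.

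To compare detection at equal depth, each barcode was thinned to 1000 UMIs, which left out 1039 WT and 1008 KO T-lineage barcodes. Most of them (935 and 941) came from the haemoglobin and granule clusters. Those clusters then held 125 of the 6215 WT and 3843 of the 10841 KO barcodes kept, so the thinned sets differ in makeup. In WT effector barcodes 9 of the 10 genes were detected in a share above that of WT erythroid-like barcodes with no overlap of the intervals. S100a10 was found in 81.6% (79.7 to 83.4) of effector and 28.3% (22.6 to 34.5) of erythroid-like barcodes, and S100a4 in 32.5% (30.3 to 34.8) and 5.49% (2.95 to 9.20). In resting barcodes this held for S100a10, S100a13, Lgals1 and Anxa6 only, and it did so in both libraries. At 500 UMIs 2 genes stood above the background in WT resting barcodes in place of 4, and 4 did in KO. The share of all genes that passes this comparison was not computed, so nothing is read from these counts.

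S100a4 had a UMI in 5.22% (4.41 to 6.14) of WT resting barcodes, which overlapped the 5.49% of erythroid-like barcodes. By CPM, summed without thinning, WT resting barcodes were above erythroid-like ones by 1.54 times (1.25 to 1.90) for S100a4, 1.92 (1.72 to 2.15) for S100a6, 1.34 (1.15 to 1.58) for S100a11 and 2.11 (1.73 to 2.61) for Anxa2, while Lgals3 overlapped with 1.17 (0.879 to 1.59). Since the shares and the CPM differ here, no expression is read from either for these genes in resting barcodes. S100a6 with 21.2% (19.7 to 22.8) against 16.5% in erythroid-like barcodes, S100a11 with 9.55% (8.46 to 10.7) against 5.49%, and Lgals3 with 2.56% against 5.06% overlapped the background share too. In KO resting barcodes S100a4 was found in 0.556% (0.363 to 0.813), below the 2.75% (1.51 to 4.56) of KO erythroid-like barcodes. Without thinning S100a4 had a UMI in 57.4% of WT effector, 16.6% of WT resting and 18.5% of WT erythroid-like barcodes. The median depths were 3816 and 3662 UMIs in resting and 4211 and 1912 UMIs in erythroid-like barcodes of WT and KO. Thinning evens the number of UMIs but not the share of free RNA in barcodes of unlike first depth. The part of this in the shares above was not tested. Neutrophil lineage-like barcodes are no background for these genes, since they had Anxa1 in 44.7% and S100a11 in 53.3% of WT barcodes.

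**Figure D4:**
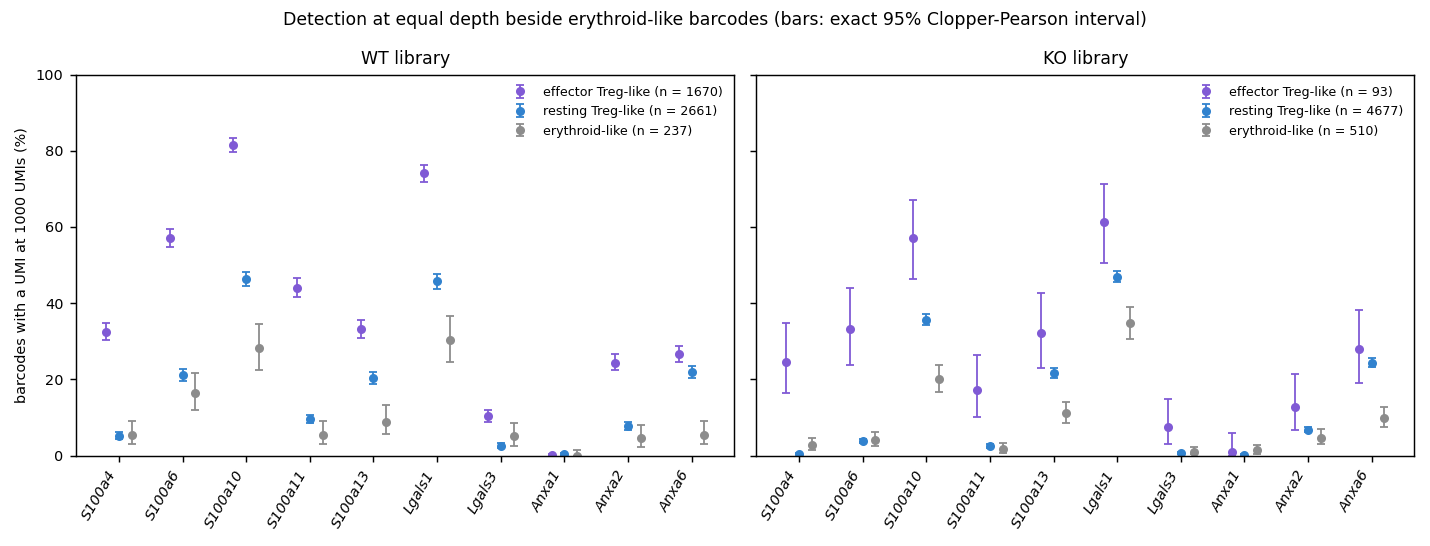
Share of barcodes (%) with at least 1 UMI of each gene after thinning to 1000 UMIs, for effector Treg-like, resting Treg-like and erythroid-like barcodes of each library, with exact Clopper-Pearson intervals. In both libraries the resting points lie clear of the erythroid-like points for S100a10, S100a13, Lgals1 and Anxa6.

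Single WT barcodes often held several of the 10 genes. Whether this goes beyond what the separate shares of the genes would give was not tested. At 1000 UMIs, WT effector barcodes held a mean of 3.84 of the 10 genes (SD 1.86 over 1670 barcodes), WT resting barcodes 1.81 (SD 1.22) and WT erythroid-like barcodes 1.10. At least 5 of the genes were present in 38% (35.6 to 40.3) of WT effector, 51.7% (47.6 to 55.8) of WT cluster 6 and 2.14% (1.63 to 2.77) of WT resting barcodes. The resting share overlapped the 2.11% (0.688 to 4.85) of WT erythroid-like barcodes. The highest number in 1 barcode was 9.

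In the KO library 1.31% (1.10 to 1.54) of T-lineage barcodes held at least 5 of the genes, against 19.9% (18.9 to 20.9) in WT, which were 142 and 1236 barcodes at 1000 UMIs. The KO share overlapped the 0.588% (0.121 to 1.71) of KO erythroid-like barcodes. At 2000 UMIs the shares were 5.32% and 38%. At 500 UMIs, which left out no T-lineage barcode, they were 0.203% in KO and 6.92% in WT. Of the 1236 WT barcodes 51.3% lay in the effector cluster, while of the 142 KO barcodes 40.1% lay in the haemoglobin and granule clusters, 26.1% in the resting and 16.2% in the effector cluster. Among the 93 KO effector barcodes 24.7% (16.4 to 34.8) held at least 5.

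**Figure D5:**
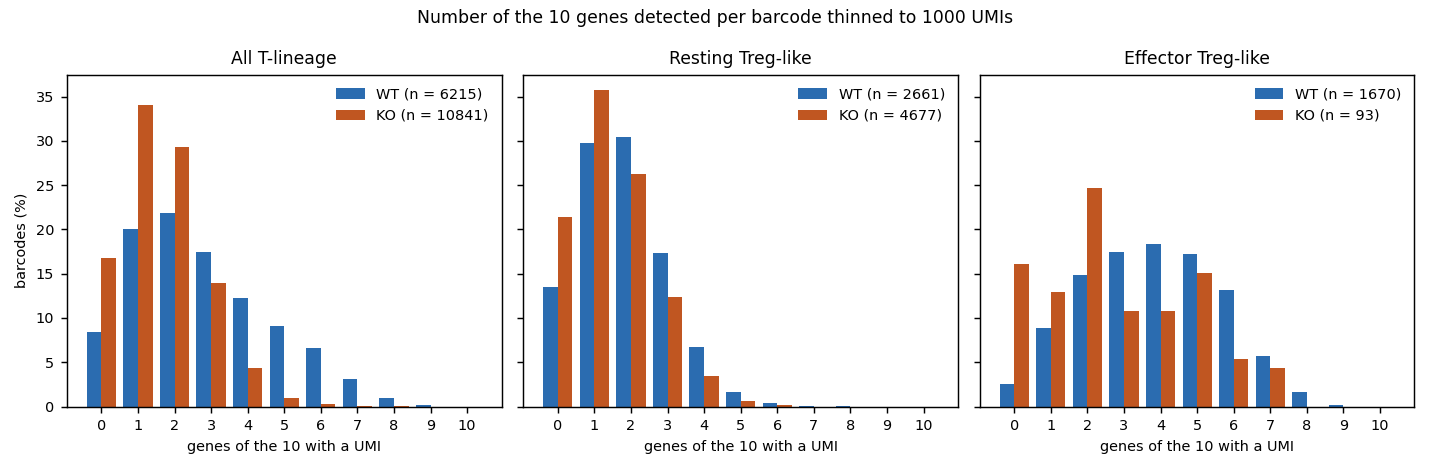
Distribution (% of barcodes) of how many of the 10 genes had a UMI in a barcode thinned to 1000 UMIs, over all T-lineage, resting and effector Treg-like barcodes of WT and KO. The WT distribution over all T-lineage barcodes reaches further right, with a mean of 2.81 genes against 1.59 in KO.

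Across 13 sums of a T-lineage cluster in 1 library, which share libraries and differ in depth, 8 of the 10 genes followed the mean of the other 9 with a Pearson r of log2(CPM + 10) of 0.75 or more. The nearest pair partners were S100a4 and S100a6 (r = 0.97) and Lgals1 and Anxa2 (r = 0.98). Anxa6 had an r of 0.55 and Anxa1 of -0.10. The genes were chosen with levels across these states and genotypes known. The share of all genes with such an r was not counted, so nothing is read from the 8. Outside the gene lists, the 10 genes most like the mean of the members were Pon2, Tradd, Gna15, Snx2, Cdc42, Sh3bgrl3, Glrx, AW112010, Rnf125 and Capns1, with r from 0.93 to 0.96. Of these, Glrx, a glutaredoxin, had a WT effector to resting ratio of 5.79 (4.95 to 6.81) and a KO to WT ratio of 0.283 (0.262 to 0.305), and Gna15, a G protein subunit, 3.73 (3.24 to 4.31) and 0.232 (0.211 to 0.255). Capns1, the small calpain subunit, had 1.61 and 0.758.

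Among the other genes of the families few were measured, and most of these differed less. Of 12 other S100 genes 4 reached 50 UMIs over all T-lineage barcodes, of 6 other galectins 4 and of 9 other annexins 5. Lgals7, another galectin, was lower in KO with 22 CPM in WT and 6.51 in KO (ratio 0.296, 0.260 to 0.336), as were Anxa4 (3.6 and 1.39 CPM) and S100a3 (1.56 and 0.726 CPM). In WT effector barcodes Lgals7 was 3.29 times (2.55 to 4.27), Anxa4 4.11 times (2.22 to 8.18) and S100a1 2.24 times (1.42 to 3.62) the resting level. S100a8 and S100a9 were not higher in effector barcodes, at 98.6 and 107 CPM against 137 and 148 in resting ones.

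Of 24 genes for binding partners and counter-receptors of the members 21 were measured over all T-lineage barcodes, 4 of them at least 2-fold lower in KO and none higher, where 5.49% of all genes tested were lower. They were Itgb1 and Itga4, the subunits of the integrin VLA-4, with ratios of 0.116 (0.110 to 0.122) and 0.324 (0.313 to 0.336), Ahnak, a scaffold of the S100a10 and annexin A2 complex, with 0.333 (0.320 to 0.345), and Plscr1, a phospholipid scramblase, with 0.376 (0.305 to 0.461). Itgb1 had 310 CPM in WT and 35.9 in KO, and it was 4.60 times (4.32 to 4.90) as high in WT effector as in resting barcodes. The list's median log2 ratio was -0.34.

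Of 22 cytoskeleton genes, all measured, 1 was at least 2-fold lower in KO, a share near the 5.49% of all genes, and their median log2 ratio was -0.21. That gene was Myo1f, an unconventional myosin, with 17.6 CPM in WT and 2.14 in KO (ratio 0.121, 0.0977 to 0.149). In WT effector against resting barcodes 6 of the 22 were at least 2-fold higher (3.62% of all genes were), the 5 with the largest ratios being Myo1f (9.12), the actin-capping gene Capg (2.62), Crip1 (2.09), the actin gene Actg1 (2.07) and Tagln2 (2.05). In resting barcodes Capg was higher in KO, with 156 CPM in WT and 220 in KO, and Crip1 had 1580 and 1596 CPM.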

How the data were processed

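Gene by barcode matrices of both libraries were used as deposited. The values are raw UMI counts per gene, deposited by the authors for called barcodes, of which 3 in each library had under 300 genes; the submitters' processing notes name Cell Ranger 5.0.1 and mm10. A barcode needed 300 genes and could hold 5% mitochondrial UMIs, and the top 5% (WT) and 8% (KO) of all barcodes by Scrublet score (scanpy 1.11.5) were removed. Counts were scaled to 10000, 2000 variable genes without the members and lists were reduced to 30 components, and a graph of 20 neighbours was clustered by Leiden at resolution 0.5 (igraph 0.11.9). No batch correction was run. T-lineage clusters had at least 50% of the upper quartile of CD3 and T cell receptor CPM. A state needed 50% of its markers raised 1.5-fold and was given from the 10 leading genes and list medians; this rule was set after the data were seen. Members and lists were chosen with earlier results of these data known. UMIs were summed per library and state as CPM, with exact Poisson, conditional binomial and Clopper-Pearson intervals. The latter 2 kinds were tried on counts simulated from the Poisson and binomial models they assume. That trial held no spread between barcodes and so does not show how the intervals cover in these data. Genes needed 50 UMIs over both groups for a 2-fold call. All 10 members are named. Other family genes are named when past 2-fold, with S100a8 and S100a9, list genes up to 5 by fold, and the 10 genes of highest r among those with a mean of 20 CPM over sums of at least 50 barcodes. The mitochondrial, gene number, doublet, resolution, thinning, scaling, gating and background choices were varied.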

Additional observations from a re-analysis of the deposited data

Results flagged for a closer look

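Barcodes over 5% mitochondrial UMIs took no part in the comparisons. With mitochondrial UMIs left out of the total, the 10 genes together had 3658 CPM (3618 to 3697) in the 6471 removed WT barcodes and 1859 CPM (1827 to 1891) in the 4364 removed KO barcodes. They were singled out because a signal of the genes appeared in barcodes the comparisons did not use. The KO to WT ratios there were 0.132 (0.110 to 0.156) for S100a4, 0.131 (0.120 to 0.143) for S100a6, 0.159 (0.140 to 0.180) for S100a11, 0.280 (0.231 to 0.338) for Lgals3, 0.420 (0.402 to 0.439) for S100a10, 0.486 (0.438 to 0.538) for Anxa2, 0.762 (0.737 to 0.788) for Lgals1 and 0.987 (0.930 to 1.05) for Anxa6. These barcodes were not split by state.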

How the results depend on the processing

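No paired analysis was possible because each genotype had 1 library, and for the same reason no replicate could be left out. The median log2 KO to WT ratio over all T-lineage barcodes, -1.79, was -1.75 with a mitochondrial filter of 10%, -1.71 with none, -1.52 as a mean of single-barcode CPM, -1.74 without mitochondrial, ribosomal protein, haemoglobin, granule and calgranulin genes, and -2.18 with the erythroid CPM subtracted. The median log2 WT effector to resting ratio, 1.99, was 1.89 with no mitochondrial filter, 2.07 with at least 500 genes, 1.55 with marker gates, 2.59 with the erythroid CPM subtracted and 2.11 at Leiden resolution 1.0. The median KO to WT ratio in resting barcodes, -0.37, lay between -0.74 and -0.32 under the alternatives run, except with the erythroid CPM subtracted, where it was -0.08 over the 7 genes that kept a level. The numbers of members past 2-fold were 6, 7 and 4 under every alternative run except that subtraction, which gave 7, 8 and 1: Lgals1 (-1.34) and S100a13 (1.05) joined, S100a11 in resting barcodes (-0.87) left, and S100a4 and Lgals3 had no KO level left there. Anxa1 over all T-lineage barcodes turned from 1.02 to -0.27 without the haemoglobin and granule clusters, a choice made after seeing the data, as was leaving out barcodes found in both libraries, which gave -1.79, 1.92 and -0.40 for the 3 medians. Thinning to 500 UMIs left 2 in place of 4 genes above background in WT resting barcodes. Thinning to 2000 UMIs gave 38% (WT) and 5.32% (KO) of T-lineage barcodes with at least 5 genes. At 1.5-fold, 15 in place of 8 other listed genes were lower in KO and 19 in place of 12 higher in WT effector barcodes. The share of all genes past 1.5-fold was not computed, so nothing is read from these rises. The makeup term of -0.65 was -0.54 at resolution 1.0. The causes were not tested. Depth limits Anxa1, which had 4 to 44 UMIs in each named state and cluster 6.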
